A study of Homo sapiens with 6 samples.

Results

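The accessible chromatin around 10 genes of the Hippo pathway's nuclear arm was described in EndoC-βH3 cells: YAP1, WWTR1, TEAD1, TEAD2, TEAD3, TEAD4, CCN1, CCN2, AMOTL2 and LATS2. Their regions were taken by position from the regions the authors listed. A promoter region overlapped the 2 kb either side of a protein-coding start site of a member. A distal region was any other region whose midpoint had a member's start site as its nearest protein-coding start site, within 100 kb. This gave 69 of 108542 regions, of which 11 were promoter regions (of 20094 in the table) and 58 were distal (of 55158 within that distance of any gene).

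EndoC-βH3 cells are human pancreatic beta cells kept in culture by immortalising transgenes. A tamoxifen-activated Cre recombinase (CreER), carried by the cells of every library, removes these transgenes when switched on. The study made ATAC-seq libraries, in which the Tn5 transposase cuts open chromatin, and asked how accessibility changes with senescence. They came from 3 control (non-senescent) and 3 senescent samples, each of 100000 cells. Senescence was induced with 4-hydroxytamoxifen (4-OHT) for 3 weeks, so that excision of the transgenes, exposure to the drug and the senescent state cannot be told apart in this design. All libraries came from a single cell line, labelled WT.

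The value used for each region was its mean signal, which is the authors' mean over all 6 libraries of the read count after scaling for library size. It has no replicate error, and depth per library cannot be read from it. The table's only values that set the groups against each other were the authors' own comparison, which was not used, so no difference between senescent and non-senescent cells is described or tested. A region open in one state alone therefore appears here at the average of both. Levels were compared between genes as mean signal per kb of region width, and ranks are descriptions without a test. A gene with no listed region may still have had reads below the authors' peak threshold.

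YAP (YAP1) and TAZ (WWTR1) are transcriptional coactivators without a DNA-binding domain of their own. The kinases LATS1 and LATS2 phosphorylate them and keep them in the cytoplasm. When the kinases are inactive, YAP and TAZ enter the nucleus, bind the TEAD factors (TEAD1 to TEAD4) and activate genes such as CCN1 (CYR61) and CCN2 (CTGF), which encode secreted matricellular proteins. AMOTL2 and LATS2 are themselves target genes that restrain YAP in a feedback loop. In the pancreas, YAP and TEAD act in progenitors, and YAP protein is lost as endocrine cells form.

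TEAD factors recognise a core whose letters are GGAATG, or CATTCC when read on the other strand. The core lay within 500 bp of the canonical start site in 9 of the 10 members, TEAD2 being the exception, against 35.0% of 19675 protein-coding genes. In the 250 bp upstream of the start site it was present in 6 of 10 members against 9.82% of genes. CCN2 had 3 cores there, a number reached by 10 genes in all (0.0508%). CCN1, CCN2, AMOTL2 and LATS2 are textbook TEAD targets, and these counts describe the genome and not the libraries. The stretches below carry cores upstream of the start sites. They include WWTR1, whose core lies just beyond 250 bp, and leave out TEAD4, whose stretch overlaps an annotated untranslated exon. They are read 5′ to 3′ along the gene from hg38, with the core in capitals.
CCN2 promoter, chr6:131951447-131951556, minus strand: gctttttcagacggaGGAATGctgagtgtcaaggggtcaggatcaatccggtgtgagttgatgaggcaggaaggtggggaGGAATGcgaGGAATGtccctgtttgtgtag
CCN1 promoter, chr1:85580636-85580671, plus strand: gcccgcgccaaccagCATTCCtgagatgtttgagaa
YAP1 promoter, chr11:102110270-102110305, plus strand: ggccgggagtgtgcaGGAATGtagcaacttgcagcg
WWTR1 promoter, chr3:149658271-149658306, minus strand: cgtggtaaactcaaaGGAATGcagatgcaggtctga
TEAD1 promoter, chr11:12674393-12674420, plus strand: tcctggcgttcatttCATTCCtgtcctc
AMOTL2 promoter, chr3:134374496-134374531, minus strand: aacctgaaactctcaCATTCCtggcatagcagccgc

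These 6 were shown because they place the core against the listed region of each gene. In positions counted along the gene from 0 at the canonical start site, with upstream negative, the CCN2 cores began at -169, -104 and -95. Its accessible region began at -89, so all 3 cores lay just outside the listed region, the nearest of them ending at -90. The CCN1 core began at -110, also upstream of a region that began at -27. In both matricellular genes, then, the listed region covered the start site and the beginning of the gene but not the cores. Region edges depend on the authors' peak threshold, so whether the chromatin at these cores was open or closed cannot be judged. The CCN2 promoter also held an AP-1 element (letters TGANTCA) at -295 and a CArG box, the site of serum response factor, at -385, both upstream of the region.

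In the other members with a core near the start site, apart from TEAD3, the listed region did cover it. The core began at -162 in YAP1, -266 in WWTR1, -69 in AMOTL2 and 9 in LATS2. TEAD1 had cores at -13, -1 and 139, and TEAD4 had cores at -13, -1 and 8, so that in both genes a core spanned the start site itself. TEAD3 had cores at 65 and 74, in the gap between its 2 regions. TEAD1 also carried a pair of cyclic AMP response elements (letters TGACGTCA) at -120 and -67, inside its region. The YAP1 and WWTR1 stretches overlap exons of neighbouring long non-coding RNAs, and the AMOTL2 stretch overlaps an exon of non-coding AMOTL2 transcripts.

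**Figure D1:**
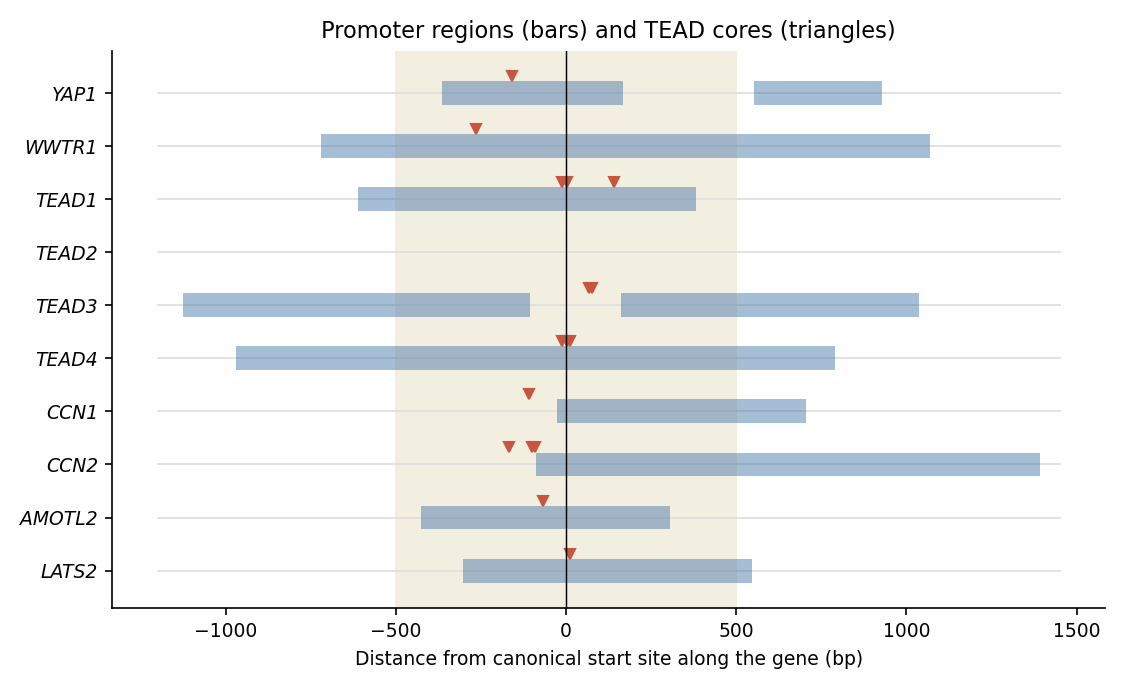
Promoter regions (bars) and TEAD cores (triangles) of the 10 genes against distance from the canonical start site along the gene (bp), with the 500 bp either side shaded. The regions of CCN1 and CCN2 begin at -27 and -89, downstream of their cores, TEAD3's 2 regions leave the start site in a gap, and TEAD2 has no region.

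Promoter accessibility of the members was mostly low for protein-coding genes in these cells. Across the 9 members with a promoter region, the median was 226 mean signal per kb against 686 over the 15493 protein-coding genes with one, taking each gene's region of highest mean signal. TEAD1 and CCN2 were the 2 members at or above that median. The order from the highest was TEAD1, CCN2, WWTR1, LATS2, TEAD3, AMOTL2, TEAD4, CCN1 and YAP1. Since no spread is available, the order of close neighbours, such as WWTR1 with LATS2 or TEAD3 with AMOTL2, cannot be judged. By CpG content, 9 of 10 members had CpG-rich start sites (at least 50% GC and an observed over expected CpG ratio of at least 0.6 in the 500 bp either side), and CpG-rich genes had a higher median of 746 per kb.

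**Figure D2:**
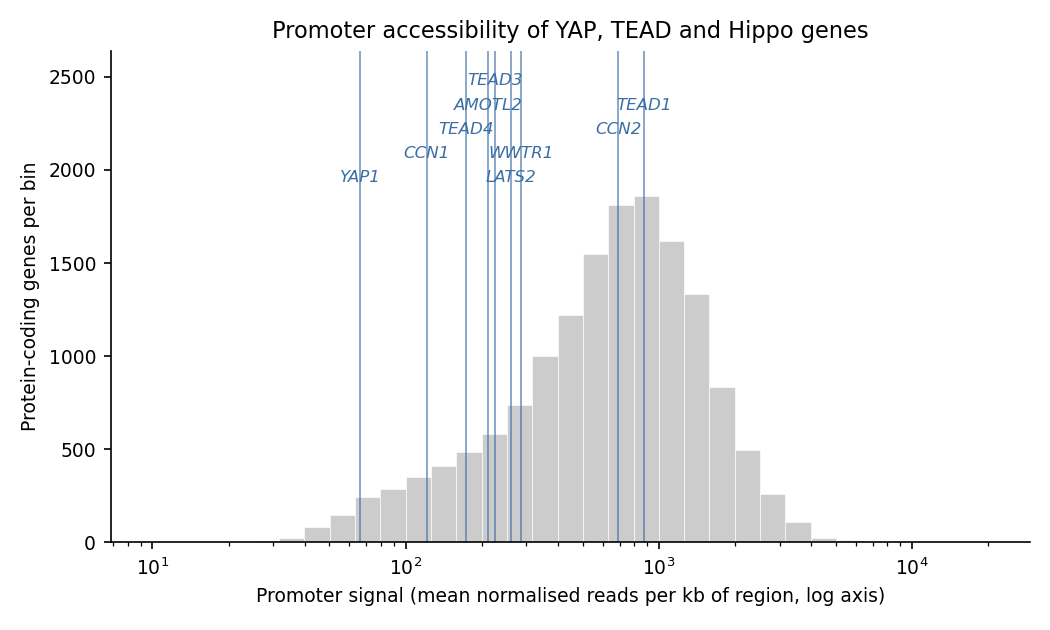
Histogram of promoter signal (mean normalised reads per kb of region, log axis) over 15493 protein-coding genes, with a line at each of the 9 members that have a promoter region. YAP1 (66.1) and CCN1 (121) lie in the low tail, 5 genes lie between 174 and 286, and only CCN2 (692) and TEAD1 (873) reach the main body of the distribution.

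Of the coactivators, YAP1 had the weakest promoter of the 9 members with a promoter region and WWTR1 a wider, stronger one. The YAP1 start site lay in a region of 530 bp (chr11:102110083-102110613) with a mean signal of 35.0, or 66.1 per kb. That level was at the 1.90 percentile of all genes with a promoter region and at the 1.29 percentile of the CpG-rich ones. A further YAP1 region of 377 bp in the first intron (chr11:102110997-102111374) had a mean signal of 23.3. Of CpG-rich genes, 4.86% had either no promoter region or a level at or below that of YAP1. Both YAP1 promoter regions were under a mean signal of 50, as were 9.36% of all promoter regions.

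WWTR1, which encodes TAZ, had a single promoter region of 1790 bp (chr3:149656954-149658744) that covered 4 of its 7 coding start sites. Its mean signal was 511, or 286 per kb, at the 19.3 percentile of genes. The promoter level of WWTR1 was the higher of the coactivator pair, and no replicate error can be given for that difference.

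Away from the promoter, the order of the coactivators was the reverse. YAP1 had 8 distal regions, all downstream of their nearest start site and 7 of them within YAP1, with mean signals from 48.7 to 145 and a median of 137. Every one of the 8 was higher per kb (107 to 464) than the YAP1 promoter. Among 11003 genes with both kinds of region, 10.2% had all of their distal regions above the promoter on that scale, and YAP1 was the only member that did. The strongest YAP1 distal region (chr11:102213944-102214471, mean signal 145) lay in an intron and held a TEAD core. WWTR1 had 4 distal regions, all within its own introns, with mean signals of 19.3, 58.0, 91.9 and 137, and none was above its promoter per kb.

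The 4 TEAD genes, which encode the DNA-binding partners, ranged from the most to the least accessible of the members. TEAD1 had a promoter region of 995 bp (chr11:12673809-12674804) with a mean signal of 869, or 873 per kb, at the 62.6 percentile of genes. TEAD4 had a wide region of 1761 bp (chr12:2958425-2960186) that took in 6 of its 7 coding start sites, with a mean signal of 306, or 174 per kb, at the 11.3 percentile. TEAD3 had a region on each side of its start site. The upstream one (chr6:35497184-35498205) had a mean signal of 230 and 226 per kb, at the 15.1 percentile, and the intronic one (chr6:35496040-35496917) had 225 and 257 per kb. Neither held the canonical start site, which lay in a region for 8 of the 10 members and for 66.9% of 19675 genes.

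No region was assigned to TEAD2, promoter or distal. The nearest listed region to its start site was 22381 bp away, on the downstream side, and was assigned to CD37 (mean signal 356). That region (chr19:49339337-49340732) reached into the 3′ end of TEAD2, which spans 49340595 to 49362457. On the other side the nearest lay 29717 bp away and was assigned to KASH5 (mean signal 200). TEAD2 fell just short of the CpG-rich class, with 61.4% GC and a ratio of 0.594. Of CpG-rich genes 3.61% had no promoter region, and of the others 54.2% had none. Within 100 kb and without the 2 kb either side of start sites, 9.61 kb lay nearer to TEAD2 than to any other coding gene. This limits how many distal regions TEAD2 could be given. The same holds for TEAD3, with 18.2 kb and no distal region.

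TEAD1 held 24 of the 58 distal regions and 57.3% of their summed mean signal. The number rests on the assignment: TEAD1 had 11 distal regions with a limit of 50 kb, and 7 of 18 where start sites of non-coding genes also counted. Only 99 genes had as many distal regions, against a median of 1 per gene. TEAD1 is a long gene with much of the genome nearest to it (357 kb, again without the 2 kb either side of start sites). Per 100 kb of that territory it had 6.72 regions, at the 85.9 percentile of 14761 genes with at least 20 kb. The median of those genes was 2.90. The 24 regions ran from a mean signal of 16.3 to 1212, with a median of 134, and 19 of them lay within TEAD1. Of the 5 strongest distal regions of all members, 4 belonged to TEAD1.

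The strongest TEAD1 distal region (chr11:12845564-12846423) had a mean signal of 1212, or 1410 per kb, which was above the TEAD1 promoter on both scales. It lay in an intron, 33449 bp upstream of the nearest TEAD1 start site. The next were chr11:12854470-12855478 with a mean signal of 808, chr11:12765141-12765913 with 762 and chr11:12864699-12865219 with 544. The regions of 1212, 808 and 544 lay in a row, at 33449, 24468 and 14483 bp upstream of the same internal start site. Weak regions lay among them: 8 of the 24 were under a mean signal of 50.

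TEAD4 had 2 distal regions, with mean signals of 48.4 and 119, at 23298 and 30704 bp downstream of the nearest start site.

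The target genes divided in the same way. CCN2 had the highest promoter signal of the members, 1026 over 1483 bp (chr6:131949978-131951461), or 692 per kb, at the 50.5 percentile of genes. The region reached from its start site to 1393 bp downstream, covering much of the short gene. CCN1, its close relative, had 88.8 over 733 bp (chr1:85580733-85581466), or 121 per kb, at the 7.04 percentile. The paralogues therefore differed in promoter level although both are standard readouts of YAP activity.

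CCN2 also had more distal regions than CCN1, 9 against 3, though they were about as dense in their territories (5.37 and 4.85 per 100 kb). Where start sites of non-coding genes also counted, CCN2 had 1 and CCN1 had 0. The strongest CCN2 distal region (chr6:131958663-131959538) had a mean signal of 685, or 783 per kb, and lay 7729 bp upstream of CCN2 in an intron of the long non-coding RNA gene LINC01013. Of the other 8, 2 lay in exons of the neighbouring gene ENPP1, and assignment by the nearest start site does not establish which gene a region serves. Their mean signals ran from 38.8 to 244. The 3 CCN1 distal regions were intergenic, 24894 to 61584 bp downstream, with mean signals of 81.5, 67.6 and 30.5.

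The feedback genes had promoters of middling rank among the members. AMOTL2, a scaffold that binds YAP, had a region of 732 bp (chr3:134374141-134374873) with a mean signal of 155, or 212 per kb, at the 14.2 percentile. Its distal regions were stronger: chr3:134406433-134407248, intergenic and 31362 bp upstream, had a mean signal of 502, and chr3:134353762-134354613, 17724 bp downstream, had 420. Per kb these were 616 and 494, both above the promoter. The others had 141 and 46.4. Where start sites of non-coding genes also counted, AMOTL2 had 1 distal region in place of 4.

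LATS2, the kinase, had a region of 849 bp over its untranslated first exon (chr13:21061040-21061889) with a mean signal of 222, or 261 per kb, at the 17.6 percentile. Its 4 distal regions lay together in its introns, 39004 to 49341 bp downstream, with mean signals of 49.5, 58.4, 105 and 107. None exceeded the promoter per kb. In all, 6 of the 8 members with both kinds of region had a distal region above the promoter per kb, against 38.8% of genes. A gene with more distal regions has more chances to have one, and this count does not allow for that.

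**Figure D3:**
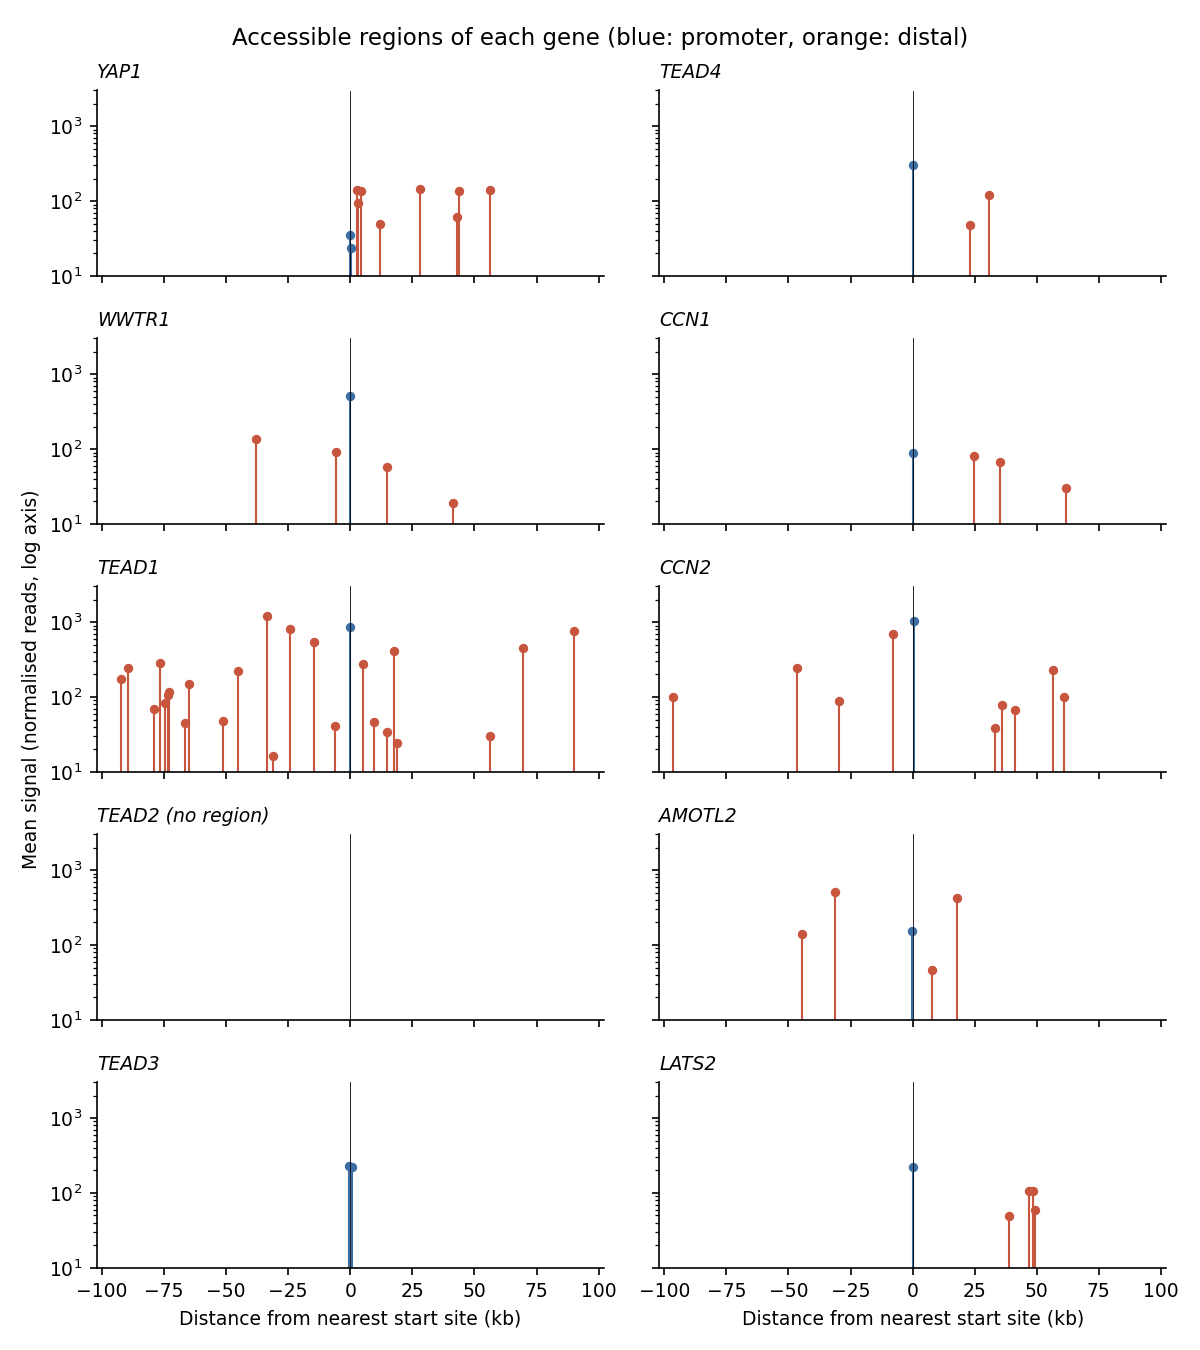
Mean signal (normalised reads, log axis) of every promoter (blue) and distal (orange) region of each gene against distance from its nearest protein-coding start site (kb, upstream negative). TEAD1 has the most distal regions (24) and the strongest (1212), YAP1's distal regions rise above its promoter regions (35.0 and 23.3), and TEAD2 has none.

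As a group the 58 distal regions were close to distal regions in general. Their median mean signal was 103 against 88.4 over all distal regions, and 213 against 187 per kb. Of them 15 (25.9%) were under a mean signal of 50, against 31.6% of all. By midpoint 41 lay in introns, 9 between genes and 8 in exons, and 36 lay within the member gene itself. In distance, 9 were within 10 kb of the start site.

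The central 300 bp of each region were searched on both strands for short motifs. In promoter regions the TEAD core was found in 5 of 11 (45.5%, 95% Wilson interval 21.3 to 72.0), against 10.7% of all promoter regions. These 5 were the promoters of YAP1, TEAD1, TEAD4, AMOTL2 and LATS2. In distal regions the share was 9 of 58 (15.5%, 8.38 to 26.9) against 14.1%. The promoter and distal shares of the members were not tested against each other, and their intervals overlap. The intervals treat regions as independent, which regions of one gene are not.

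AP-1 elements are bound by the FOS and JUN factors that often share enhancers with TEAD. They were in the central 300 bp of 0 of 11 promoter regions (upper bound 25.9%) against 4.51%. In distal regions the share was 5 of 58 (8.62%, 3.74 to 18.6) against 11.3%, a share that the interval takes in. Outside that window, the TEAD4 promoter region held an AP-1 element at 336. No member distal region held both a TEAD core and an AP-1 element, against 1.72% of all distal regions. The interval for 0 of 58 (0 to 6.21%) takes in that share, so the absence is not read as a result. Of the 5 distal regions with AP-1, 4 belonged to TEAD1 and 1 to WWTR1. The distal regions with a TEAD core belonged to AMOTL2 (3), YAP1 (2), TEAD1 (2), CCN2 (1) and LATS2 (1). The 3 strongest outside untranslated exons are shown as they read on the plus strand of hg38, with the core in capitals.
TEAD1 distal, chr11:12864861-12864916: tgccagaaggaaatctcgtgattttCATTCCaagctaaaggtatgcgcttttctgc
AMOTL2 distal, chr3:134406935-134406990: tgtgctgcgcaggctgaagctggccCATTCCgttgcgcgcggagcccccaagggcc
YAP1 distal, chr11:102214265-102214320: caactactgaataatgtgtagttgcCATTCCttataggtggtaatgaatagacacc

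The TEAD1 stretch belongs to the region of mean signal 544 and overlaps a coding exon of TEAD1. The AMOTL2 stretch belongs to the region of 502 and is GC-rich, unlike the YAP1 stretch from the region of 145. Among motifs of beta cell and general factors, the FOXA element (TGTTTAC) was in 11 of 58 distal regions (19.0%, 10.9 to 30.9) against 9.26%. The CTCF core (AGGGGGC) was in 7 (12.1%, 5.97 to 22.9) against 6.72%. The homeodomain core TAATTA was in 12.1% against 9.57%, the MAF element TGCTGAC in 3.45% against 7.67% and the RFX element GTTGCCA in 6.90% against 5.52%. Of these 5 motifs, FOXA was the only one whose interval did not take in the share of all distal regions, and it was picked after its values were seen. The strongest TEAD1 distal region held a CTCF core, shown in capitals within its surroundings on the plus strand.
TEAD1 strongest distal, chr11:12845797-12845903: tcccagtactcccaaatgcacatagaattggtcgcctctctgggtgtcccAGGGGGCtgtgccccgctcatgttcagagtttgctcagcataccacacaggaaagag

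**Figure D4:**
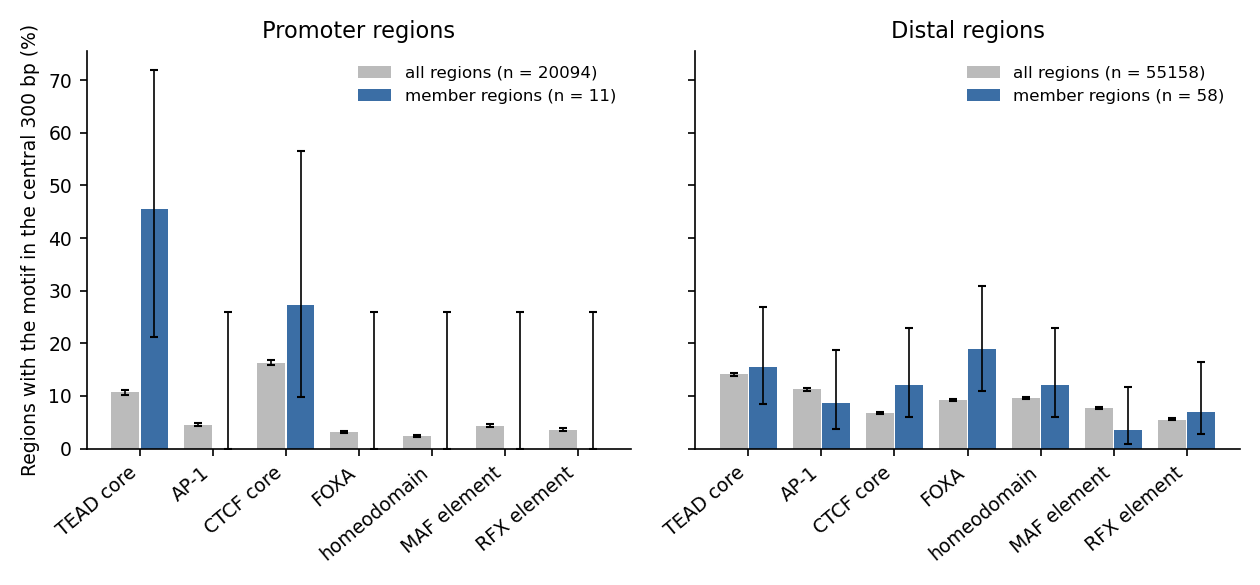
Share of regions (%) with each motif in the central 300 bp, for the members (blue) and all regions (grey) of the promoter and distal classes, with 95% Wilson intervals as bars. The TEAD core stands at 45.5% of member promoter regions against 10.7% of all, and in distal regions the member and overall shares lie close (15.5% and 14.1%).

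Other genes of the pathway were described by the same promoter level, without a test. Of 21 upstream kinases and scaffolds, all had a promoter region, with a median of 596 per kb, and 10 were at or above the median of all genes. The highest were NF2, the membrane scaffold merlin (2360), and the kinase TAOK2 (1704), and the lowest were the LIM protein AJUBA (78.4) and the protocadherin DCHS1 (163). STK3 and STK4, the kinases that activate LATS, had 596 and 1273 per kb, and LATS1 had 975 against 261 for its paralogue LATS2. Of the 4 VGLL cofactors, which bind TEAD in place of YAP, VGLL4 had 903 per kb, VGLL3 238 and VGLL2 192, and VGLL1 had no promoter region. The median of the 3 with a region (238) was near that of the members (226).

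Of 18 other widely used YAP target genes, 17 had a promoter region, with a median of 559 per kb, and 5 were at or above the median of all genes. GADD45A (1497), a stress gene, and NT5E (1148), an ecto-nucleotidase, were the highest, and AJUBA (78.4) and the membrane protein MYOF (82.4) the lowest. AXL, a receptor tyrosine kinase, had no promoter region. AJUBA and PTPN14 stand in both lists, and the AJUBA region is shared with another annotated gene.

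The labelled cell type was checked by the same measure. All 13 beta cell genes had a promoter region, with a median of 1186 per kb and 9 at or above the median of all genes. PDX1 had 2057, NKX6-1 1505 and INS 1427, the last in a region shared with IGF2 and INS-IGF2. NEUROD1 (2164) shared its region with CERKL, and PAX6 (1581) shared its region with another annotated gene. The beta cell genes below the median of all genes were ABCC8 (589), SLC30A8 (541), IAPP (435) and G6PC2 (286). Markers of other pancreatic cells were lower: duct markers had 5 of 7 with a region and a median of 147, acinar markers 5 of 7 and 118, mesenchymal markers 5 of 8 and 76.4, and endothelial markers 2 of 5 and 122. Of 5 immune markers only CD68 had one (921). CD68, KRT19 (737) of the duct list and CPA1 (1298) of the acinar list were the 3 of these other markers above the median of all genes. Per kb, YAP1 (66.1) was below all 5 mesenchymal and both endothelial markers that had a region. Its order against the lowest of them, LUM (66.3), cannot be judged, since no spread is available. In mean signal not divided by width, YAP1 (35.0) was above LUM (19.4) and COL1A2 (17.6) and below the others. CCN1 (121) was within the range of both lists per kb (66.3 to 144 and 99.7 to 144). TEAD1 and CCN2 were within the range of the beta cell genes (286 to 2164), and WWTR1 (286) stood at its lower edge.

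**Figure D5:**
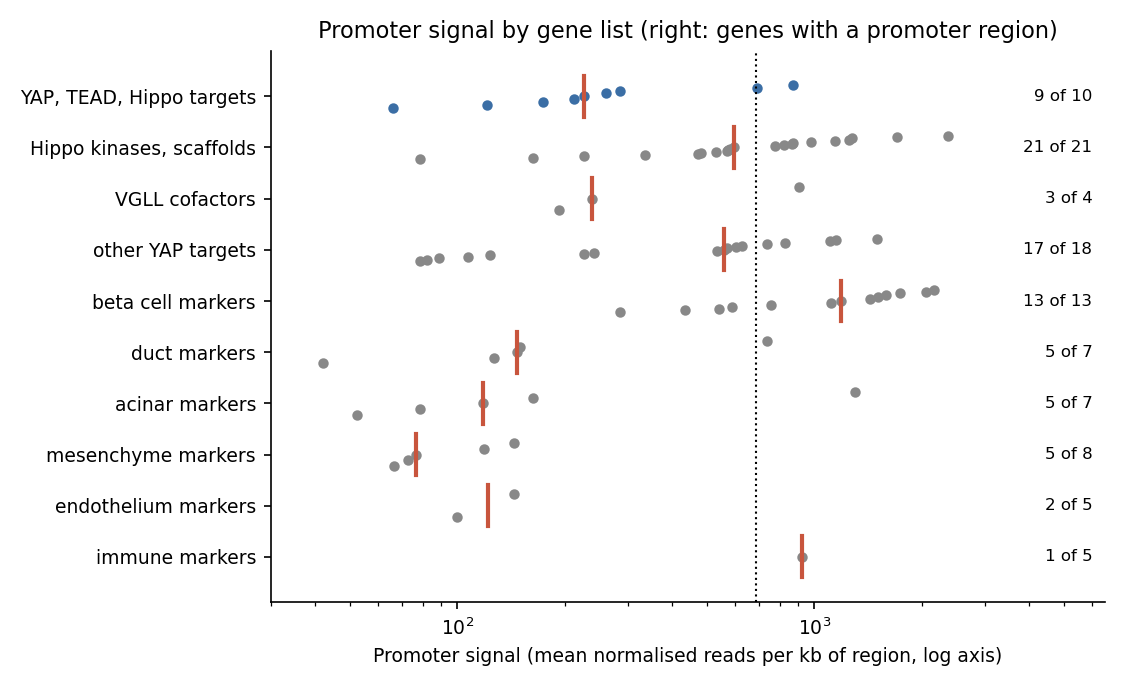
Promoter signal per gene (mean normalised reads per kb of region, log axis) by gene list, with red bars at list medians, a dotted line at the median of all genes with a promoter region (686) and, at the right, how many genes of each list have a promoter region. The members' median (226) lies below those of the Hippo kinases and scaffolds (596) and of other YAP targets (559), and the beta cell markers lie highest (1186).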

How the data were processed

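ATAC-seq was measured in 3 non-senescent and 3 senescent EndoC-βH3 samples, grouped by the treatment label. Trim Galore, cutadapt, Bowtie, SAMtools, Picard, MACS2, DESeq2 and deepTools are named in the submitters' processing notes, with the hg38 build. The authors pooled peaks over libraries into 1 list of regions and deposited 1 table, whose mean signal per region is the mean over libraries of counts divided by DESeq2 size factors. Its other 5 columns hold the authors' comparison of senescent with non-senescent cells (log2 fold change, its standard error, the statistic and p-values) and were not used. Without a value per library, no test between groups could be run, and the table gives neither depth nor replicate spread.

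Regions were assigned with GENCODE release 44 (Python 3.11.15, pandas 2.3.3, numpy 2.4.6) and sequences were read with pysam 0.24.0. Region coordinates are printed as in the table. It does not state its convention, and starts were read as counting from 0, so a distance from a region's start may be off by 1 bp, while sequence coordinates count from 1. Assignment and motif search were tested on simulated data. Signal per kb is mean signal over region width, and a gene's promoter level is that of its promoter region of highest mean signal. Wilson intervals (statsmodels 0.14.6) cover counting only.

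The members and gene lists were chosen with earlier results of these data known. All 10 members were named, each with its strongest promoter and distal region. Other pathway genes were to be named only as the 2 highest and 2 lowest of each list. STK3, STK4, LATS1, the markers named beside them, the motifs other than TEAD and AP-1, and the printed sequences other than those of CCN1 and CCN2 were chosen after their values were seen. Distal regions with both a TEAD core and an AP-1 element were to be printed, and there were none.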

Additional observations from a re-analysis of the deposited data

How the results depend on the processing

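Members with a promoter region stayed at 9 with windows of 1 or 0.5 kb, and promoter regions at 11. Dropping regions under a mean signal of 50 left 9 promoter regions, with none for YAP1, and 43 distal regions. Distal regions numbered 40 within 50 kb, 11 of them of TEAD1. They fell to 18 when the start sites of all annotated genes, non-coding ones included, took part in the assignment. By construction this moves regions to non-coding genes or into the promoter class. TEAD1 then had 7 distal regions, YAP1 5, WWTR1 3 and CCN2, AMOTL2 and LATS2 1 each, and TEAD4 and CCN1 had 0. Promoter regions rose from 2 to 3 for YAP1 and from 1 to 2 for TEAD1 and for LATS2. The median percentile of the members' promoter level was 15.1, and 16.1 without dividing by width, 17.1 over all promoter regions of a gene and 14.4 with a 1 kb window. That of the distal regions was 56.1, and 54.7 without dividing by width and 56.0 within 50 kb. The share of all 69 regions with a TEAD core was 20.3% (14.2% over the whole table), and 7.25% (4.21%) with the longer letters TGGAATG. No paired analysis was possible because every region carries a single value pooled over the libraries. For the same reason the planned edgeR test was not run and no replicate could be left out.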

Other observations

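TEAD1 held 3 further weak regions that the 100 kb limit left out, with mean signals of 45.8, 26.6 and 15.9 at 100.2 to 101.8 kb from its nearest start site. In the RefSeq promoter windows for hg38 (250 bases before to 50 after the start), all 10 members matched an entry, and AMOTL2, CCN2, LATS2 and YAP1 held a TEAD core, against 14.0% of 35116 windows. CCN1, TEAD1 and TEAD4, each with a core in the 250 bp upstream of the canonical GENCODE start site, had none in the RefSeq window. Their RefSeq windows therefore did not span those cores. CCN2 was the only member with TATAAA in its RefSeq window, against 11.5% of all windows. Around the canonical start sites this TATA box stood at -32 in CCN2, inside its accessible region, and from -30 to -25 in CCN1, across the edge of its region at -27.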
